A study of Mus musculus with 12 samples.

Results

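The 5 genes described here encode the proteins of the neutrophil's primary (azurophil) granule, myeloperoxidase (Mpo), neutrophil elastase (Elane), proteinase 3 (Prtn3) and cathepsin G (Ctsg), together with Padi4, the peptidylarginine deiminase of neutrophil nuclei. They were found by matching the Ensembl identifiers of the count tables to these symbols, which gave 5 genes of the 55335 listed. The RNA came from mice on the FVB background at 10 weeks of age, in 12 libraries, 4 in each of 3 groups, each taken as 1 mouse. PyMT TANs were tumor-associated neutrophils from the mammary tumors of mice that carry the polyoma middle T transgene in the mammary gland and have intact Cxcr2. PyMT-Cxcr2-/- TANs came from the same tumor model with germline loss of Cxcr2, the receptor for the neutrophil-attracting CXC chemokines, so the receptor was missing from every cell of these mice. WT BM neutrophils came from the femurs and tibias of wild-type mice with no transgene. All cells were enriched on CD11b beads and sorted as CD45+ CD11b+ Ly6G+ F4/80-. Bone marrow of tumor-free Cxcr2-/- mice and neutrophils of healthy mammary gland were not analysed here, so tissue and transgene cannot be told apart in a comparison of TANs with marrow.

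Primary granules are the earliest granules of the neutrophil lineage. Their proteins are made in the marrow at the promyelocyte stage and are then stored, and the transcripts are shut off as the cell matures, so a mature neutrophil carries the proteins with little of the RNA. Myeloperoxidase uses hydrogen peroxide to make hypochlorous acid, and the 3 serine proteases digest bacterial and host proteins once cathepsin C has trimmed their activation peptides. Padi4 converts arginines of histones to citrulline, a step in the release of neutrophil extracellular traps, the webs of chromatin to which elastase and myeloperoxidase are bound.

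Elane and Prtn3 are neighbours, and they are shown with Padi4 because both carry an ETS form, a MYB form and a TATA box in that order before the start, whereas the Padi4 window has no match to the ETS form. In mm10 with the GENCODE M21 annotation, Prtn3 (ENSMUSG00000057729) lies on the plus strand of chromosome 10 at 79874476 to 79883174, and Elane (ENSMUSG00000020125) follows on the same strand at 79886247 to 79888215, 3072 bases further on. Mpo (ENSMUSG00000009350) is on chromosome 11 at 87793581 to 87804413 on the plus strand. Ctsg (ENSMUSG00000040314) is on chromosome 14 at 56099881 to 56102574, and Padi4 (ENSMUSG00000025330) on chromosome 4 at 140745865 to 140774236, both on the minus strand. The windows are the 250 bases before the RefSeq start on GRCm38.p6, chr10:79886062-79886311 on the plus strand for Elane, chr10:79879417-79879666 on the plus strand for Prtn3, and chr4:140774204-140774453 on the minus strand for Padi4. For Elane, Prtn3 and Padi4 the RefSeq start lies inside the longer GENCODE gene, so part of each window lies within that gene. Each is written 5′ to 3′ along its gene, and the capitals mark matches on either strand to GAGGAAG (a form bound by the ETS factor PU.1), to CAACNG with its variant form TAACNG (forms of the MYB site), and to the core of the TATA box, TATAA.

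Elane: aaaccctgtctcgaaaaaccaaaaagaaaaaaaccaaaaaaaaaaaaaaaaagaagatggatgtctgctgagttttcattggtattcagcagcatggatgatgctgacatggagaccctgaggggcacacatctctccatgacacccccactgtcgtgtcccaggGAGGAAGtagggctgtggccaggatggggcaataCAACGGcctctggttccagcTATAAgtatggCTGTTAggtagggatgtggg
Prtn3: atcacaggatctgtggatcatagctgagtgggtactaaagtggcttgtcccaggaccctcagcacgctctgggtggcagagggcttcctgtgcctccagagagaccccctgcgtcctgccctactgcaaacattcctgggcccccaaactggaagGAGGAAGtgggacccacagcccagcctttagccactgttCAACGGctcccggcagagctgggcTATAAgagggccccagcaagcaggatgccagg
Padi4: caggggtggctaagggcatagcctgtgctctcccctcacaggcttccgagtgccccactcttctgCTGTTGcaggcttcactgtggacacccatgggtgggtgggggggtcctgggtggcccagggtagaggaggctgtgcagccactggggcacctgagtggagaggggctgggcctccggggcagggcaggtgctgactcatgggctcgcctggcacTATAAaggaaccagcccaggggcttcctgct

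GAGGAAG began 85 bases before the start of Elane and 95 before that of Prtn3, followed by CAACGG at 51 and 56 bases and by TATAA at 31 and 32. Elane has a further MYB form, TAACNG on the other strand, from 20 to 15 bases before the start, which the Prtn3 window lacks. GAGGAAG was found in the windows of 4 of the 5 genes, Padi4 being the exception, and in 10.6% of the 32851 promoters of the same length. One or both of the MYB forms were in all 5 windows and in 43.1% of promoters, and TATAA was in 4, all but Mpo, and in 22.8% of promoters. The TATAA of Padi4 began 31 bases before its start. That of Ctsg was on the other strand and far from the start, at 236 to 232 bases before it. TGTGGT, a RUNX form, was in the Ctsg window and in 14% of promoters. TTGCNNAA, a C/EBP form found in 9.56% of promoters, was in none of the 5 windows. Both strands were searched, these letter strings were chosen with the sequences in view, and a match is a description of the letters and not of a bound site.

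Between 25032704 and 51351569 reads were counted on genes in each library. PyMT replicate 3 had reads on 18552 genes and PyMT replicate 2 on 20136, fewer than the 21620 to 25975 of the other 10 libraries. Counts of 10 to 59 were even in 78.4% of cases in PyMT replicate 2, in 51.2% in PyMT replicate 4 and in 56.9% to 68.0% in the other 10, so in most libraries low counts tended to come in pairs and an interval that takes reads as independent is too narrow. All intervals and limits below cover counting error only. Neutrophil marker genes were high in every library, where their summed CPM (read counts scaled to library size with the trimmed mean of M-values, TMM) spanned 67966 to 89626 in marrow, 9814 to 15465 in Cxcr2-intact tumors and 16116 to 26312 in Cxcr2-deficient ones. Macrophage markers summed to 213.7 to 309.6, 2135 to 5029 and 2314 to 4836 CPM, and mammary epithelial markers to 0.187 to 0.539, 40.7 to 417.3 and 66.8 to 288.6 CPM, in the same order of groups, with the epithelial genes Krt8, Csn2 and Csn3 at 0 in all marrow libraries. In a bulk library, fewer cells of a type and less RNA for each cell cannot be told apart.

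The 4 granule transcripts were lower in every TAN library than in any marrow library, and for Elane and Ctsg some TAN libraries held no reads at all. Mpo was read at 35.4, 21.3, 39.7 and 29.0 CPM in the 4 WT BM libraries. In PyMT TANs its levels were 1.08, 0.843, 5.39 and 0.657 CPM, and in PyMT-Cxcr2-/- TANs 0.517, 1.52, 0.582 and 0.458 CPM. PyMT replicate 3 stood above the other TAN libraries, yet the lowest marrow library was still 3.95-fold above it. Elane was read at 15.8, 7.44, 17.3 and 12.9 CPM in WT BM neutrophils. In PyMT TANs its levels were 0.170, 1.0, 0 and 0 CPM, and in PyMT-Cxcr2-/- TANs 0.307, 0, 0.665 and 0.167 CPM. Reads of elastase were thus missing from 3 of the 8 TAN libraries, and no TAN library reached the marrow range.

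Prtn3, a close relative of elastase that cuts many of the same proteins, had the highest mean level per exon length of the 4 granule genes in both kinds of TAN. Its WT BM levels were 8.81, 6.88, 10.4 and 8.72 CPM. In PyMT TANs the gene was read at 2.27, 0.316, 2.99 and 0.760 CPM, and in PyMT-Cxcr2-/- TANs at 1.57, 1.06, 0.665 and 1.5 CPM. All 8 TAN libraries held Prtn3 reads, and the highest TAN library was 2.30-fold below the lowest marrow library. An exon of Prtn3 overlaps the antisense gene Plppr3, which was read at 6.0 to 12.6 CPM in TANs and 1.92 to 3.75 CPM in marrow, and whether the counting kept the strands apart is not given in the sources used here, so some Prtn3 reads are uncertain. Ctsg, a protease of chymotrypsin-like specificity, was read at 4.01, 3.33, 5.14 and 4.0 CPM in WT BM neutrophils. It had 4 reads in PyMT replicate 1, 2 reads in PyMT-Cxcr2-/- replicate 2 and 0 in the other 6 TAN libraries. A count of 0 allows a level of up to 0.0575 to 0.0997 CPM, depending on the library, taking 3 counts as the limit. Over pooled reads the marrow level of Ctsg was 169-fold that of PyMT TANs (95% exact interval 65.8 to 624) and 387-fold that of PyMT-Cxcr2-/- TANs (107 to 3204). With the counts halved, since low counts tended to come in pairs, these intervals widened to 46.5 to 1406 and 68.9 to 15341.

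Padi4 was more abundant in marrow than the 4 granule genes, and it was still clearly present in the tumors. Its fall was not small, since its mean CPM in marrow was 35.1-fold that of PyMT TANs. The same ratio was 15.7 for Mpo, 5.49 for Prtn3, 45.6 for Elane and 194 for Ctsg. The WT BM levels of Padi4 were 820.3, 709.7, 590.9 and 651.2 CPM. In PyMT TANs it was read at 30.7, 25.2, 15.6 and 7.60 CPM, and in PyMT-Cxcr2-/- TANs at 73.8, 88.3, 106.7 and 182.2 CPM. The 3 groups did not overlap, with the TANs of Cxcr2-deficient mice between the other groups and their lowest library 2.40-fold above the highest PyMT library.

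**Figure D1:**
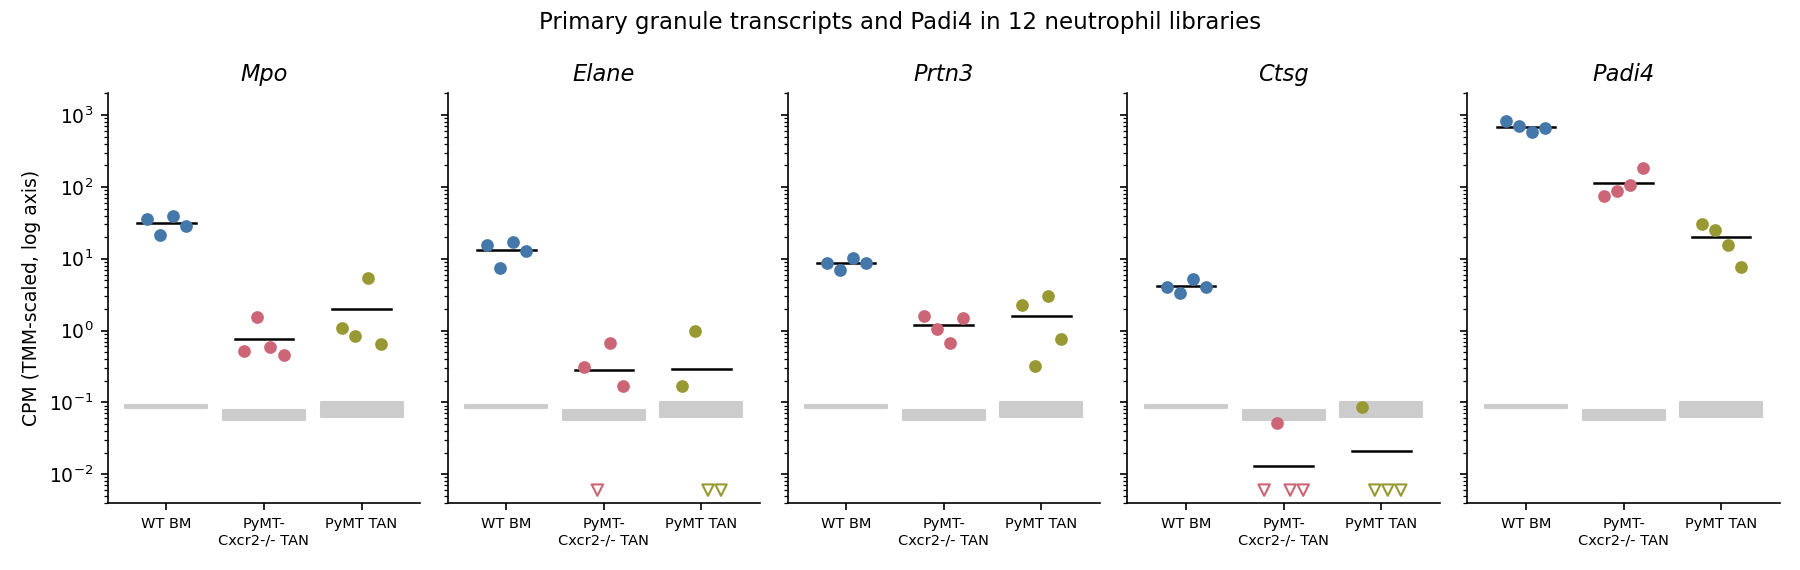
CPM of the 5 genes on a log axis by group, with 1 point for each library in replicate order from left to right and a horizontal line at the mean. Grey bands mark the level of 3 counts, and open triangles near the bottom stand for libraries with 0 counts and are not to scale. Padi4 forms 3 separate groups, while for the 4 granule genes both TAN groups lie below marrow and overlap each other.

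Divided by exon length, the order of the genes differed between marrow and tumor. In WT BM neutrophils Padi4 was first at a mean of 143.3 CPM per kb, above 98.8% of the genes with reads, followed by Elane at 13.6, Mpo at 9.15, Prtn3 at 5.02 and Ctsg at 3.99 CPM per kb. The ranges of Elane and Mpo, and of Prtn3 and Ctsg, overlapped. In PyMT-Cxcr2-/- TANs Padi4 was again first at 23.3 CPM per kb, followed by Prtn3 at 0.692, Elane at 0.289, Mpo at 0.225 and Ctsg at 0.0125. Only Padi4 against Prtn3 and Mpo against Ctsg were separate neighbours in that order. In PyMT TANs the means were 4.09 for Padi4, 0.915 for Prtn3, 0.582 for Mpo, 0.298 for Elane and 0.0206 CPM per kb for Ctsg, and no neighbours in the order were separate beyond their ranges.

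The make-up of the granule transcripts was even among marrow libraries and scattered among TANs. As a share of the summed CPM per kb of the 4 genes, Elane took 42% ± 4.12 (SD, n = 4) in WT BM neutrophils, Mpo 28.9% ± 0.80, Prtn3 16.2% ± 2.04 and Ctsg 12.9% ± 1.83. Prtn3 took 51% ± 26.9 in PyMT TANs and 56.7% ± 18.7 in PyMT-Cxcr2-/- TANs, where every library was above the marrow range. The difference of Prtn3 between PyMT-Cxcr2-/- TANs and marrow gave p = 0.0286 in a two-sided exact permutation test, the smallest that 4 mice against 4 can give, and 0.114 after Benjamini-Hochberg adjustment over the 12 shares compared. Ctsg took 1.09% ± 2.18 and 1.13% ± 2.26 in the 2 TAN groups, each with the same exact p of 0.0286 and adjusted value of 0.114 against marrow. None of the 12 differences in share passed the adjustment.

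**Figure D2:**
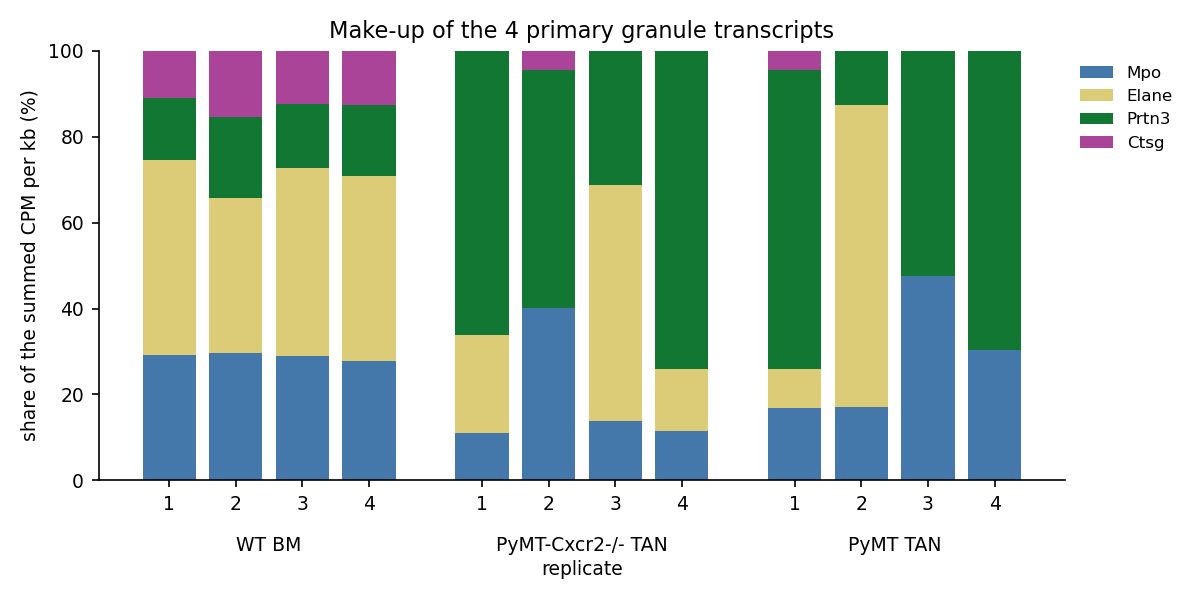
Share of Mpo, Elane, Prtn3 and Ctsg in their summed CPM per kb, in percent, with 1 stacked bar for each library by group and replicate. The 4 marrow bars look alike, with Elane between 36.0% and 45.4%, whereas in TANs, where few reads lie behind each bar, Elane runs from 0% to 70.4%.

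The first comparison asked how TANs of Cxcr2-intact tumors differ from marrow neutrophils. Each of the 5 genes was lower in PyMT TANs, with no overlap between the groups. Elane and Ctsg passed the filter on low counts only through their marrow counts, so they had to differ, and their values are given as a description. Over pooled reads the marrow level of Elane was 47.9-fold that of PyMT TANs (95% exact interval 35.7 to 65.6, or 31.7 to 75.9 with the counts halved), and that of Ctsg is given above. With Benjamini-Hochberg adjusted p from the quasi-likelihood test of edgeR, the log2 fold change was -3.92 (SE 0.63, adjusted p = 0.00028) for Mpo and -2.38 (SE 0.56, adjusted p = 0.0036) for Prtn3. Padi4 fell by 5.06 on the log2 scale (SE 0.38, adjusted p = 1.0e-06). A gene was called at an adjusted p under 0.05 and a change of at least 1.5-fold. Of all 17153 genes tested, 53.3% were called, 23.2% as lower and 30.1% as higher, and 58.2% had groups that did not overlap, so a call in this comparison was common. Macrophage and epithelial marker levels were far higher in the TAN libraries, as given above, and their part in the result was not tested.

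The second comparison set PyMT-Cxcr2-/- TANs against the same 4 marrow libraries, so the marrow values are shared. All 5 genes were again lower without overlap, with the same limit for Elane and Ctsg. The log2 fold changes were -5.26 for Mpo (SE 0.37, adjusted p = 1.5e-07) and -2.74 for Prtn3 (SE 0.27, adjusted p = 1.2e-06) by edgeR. Padi4 fell by 2.5 on the log2 scale (SE 0.24, adjusted p = 1.7e-06, edgeR). Elane, over pooled reads, was 44.9-fold higher in marrow (34.4 to 59.7, or 30.9 to 68.0 with the counts halved). Among the 17732 genes tested, 59.5% were called, 25.1% as lower and 34.4% as higher, and 65.8% had groups that did not overlap.

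The third comparison, between the 2 kinds of TAN, asked how tumor neutrophils differ in mice with germline loss of Cxcr2. The paper reports heavier tumors in these mice, holding more neutrophils and fewer macrophages. Receptor loss in the neutrophil and the altered tumor therefore cannot be told apart. TANs of Cxcr2-deficient mice carried 5.58-fold more Padi4 RNA (log2 fold change 2.48, SE 0.42, adjusted p = 0.019, edgeR), and each of their 4 libraries was above every PyMT library. Mpo did not pass the test, at -1.41 (SE 0.76, adjusted p = 0.44), nor did Prtn3, at -0.44 (SE 0.67, adjusted p = 0.86). Elane and Ctsg had too few reads in TANs to enter the test. When no genes were filtered, their fitted log2 fold changes were -0.02 and -0.70, with adjusted p of 0.999 and 0.93 by edgeR. The Elane value moved with the libraries, to 1.73 without PyMT replicates 2 and 3, -0.24 without PyMT replicate 1, -0.45 without PyMT replicate 3, -0.48 without PyMT replicate 4, 0.35 without PyMT-Cxcr2-/- replicate 2 and 0.13 without PyMT-Cxcr2-/- replicate 4. In all, 1 of the 3 genes tested was called, against 1.98% of the 18463 genes tested in either direction, 1.38% as higher and 0.596% as lower, and 11.9% of all genes had groups that did not overlap. Neutrophil markers summed higher in every PyMT-Cxcr2-/- library than in any PyMT library, as given above, and eosinophil, basophil and mast cell markers summed lower, at 50.8 to 69.3 against 103.2 to 183.6 CPM, with Mcpt8, Prss34 and Fcer1a at 0 in all TANs. Most of the latter sum was Siglecf, at a mean of 55.1 against 134.3 CPM. Monocyte and progenitor markers summed higher, at 295.5 to 358.2 against 221.7 to 242.7 CPM. Of these 7 markers only Ly6c2 was called (log2 fold change 1.84, adjusted p = 0.011, edgeR), at 73.6 to 147.8 against 14.9 to 31.3 CPM. It was also read at a mean of 741.9 CPM in marrow neutrophils. Kit, Ccr2 and Irf8, the next most abundant, were at 0.39, 0.05 and 0.19 and were not called. The part of these marker sums in the Padi4 result was not tested.

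The Padi4 call was near its threshold although its size was steady. It was lost without PyMT replicate 2 (2.63, adjusted p = 0.059), without PyMT replicate 3 (2.40, 0.070), without PyMT-Cxcr2-/- replicate 3 (2.51, 0.067) and without PyMT-Cxcr2-/- replicate 4 (2.17, 0.053). With both PyMT replicates 2 and 3 left out the value was 2.55 with an adjusted p of 0.17, with no filter 2.52 and 0.10, and with adjustment for GC content and length 2.40 and 0.057. The Mpo value rested on 1 library, since without PyMT replicate 3 it was -0.19 with an adjusted p of 0.93, and that of Prtn3 became 0.08 with an adjusted p of 0.97. PyMT replicate 3 also held hemoglobin transcripts, with Hba-a1 at 34.9 and Hbb-bs at 48.8 CPM, both at no more than 1.38 CPM in the other TAN libraries, and their part in its Mpo level was not tested.

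**Figure D3:**
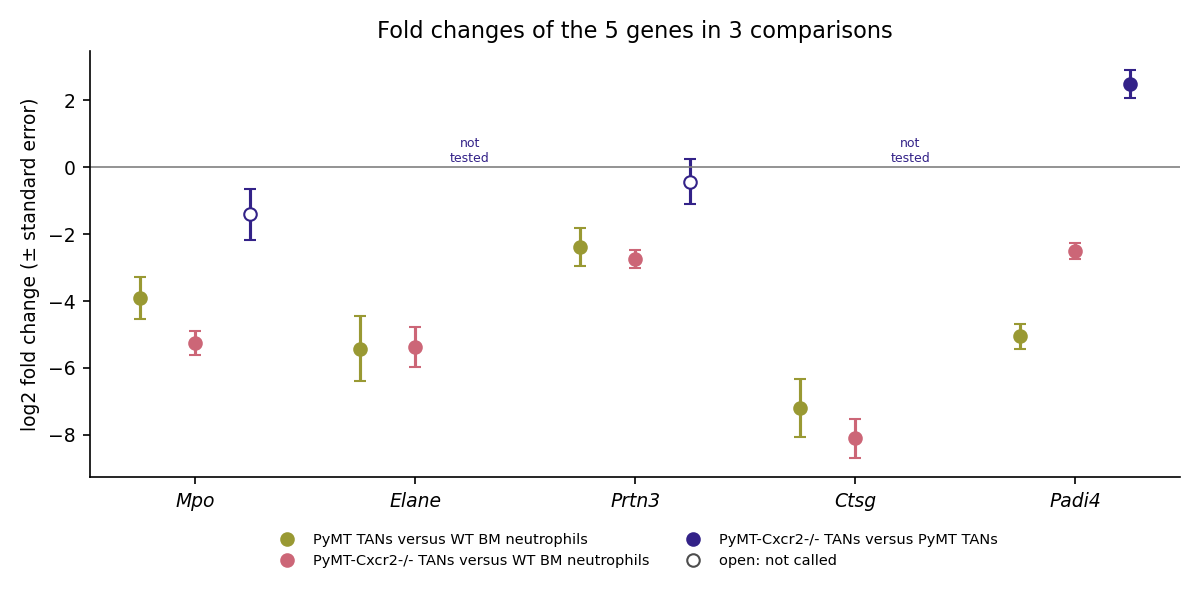
Log2 fold changes of the 5 genes, with standard errors as bars, in the comparisons of PyMT TANs with marrow, PyMT-Cxcr2-/- TANs with marrow, and PyMT-Cxcr2-/- TANs with PyMT TANs. Filled points passed the adjusted p and fold thresholds and open points did not, and the marrow points of Elane and Ctsg are of genes that entered the test only through marrow. Against marrow all 5 genes lie below 0, and between TANs Padi4 alone is called, at 2.48, while Elane and Ctsg were not tested.

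Gene lists around the 5 genes were counted in the same fits. Over all genes tested, 30.1% were called higher and 23.2% lower in PyMT TANs against marrow. The shares were 34.4% and 25.1% in PyMT-Cxcr2-/- TANs against marrow, and 1.38% and 0.596% between TANs. The share of all genes at an unadjusted p under 0.05 was not counted, so list counts at that limit have no background. Of 12 other genes of primary granules and promyelocytes, 10 were tested in PyMT TANs against marrow, 3 were higher and 3 lower, and the median log2 fold change was -0.44 beside 0.09 over all genes. In PyMT-Cxcr2-/- TANs against marrow, 9 were tested, 3 were higher and 4 lower, with a median of -0.45 beside 0.09. The list thus had members in both directions. Lyz2, the lysozyme of myeloid cells, was lower, at -3.03 and -2.03 in the 2 TAN groups. Ctsc, which encodes the cathepsin C that activates the granule proteases, rose by 4.89 and 4.87, and was read at 8.84 to 11.7 CPM in marrow and at 170.6 to 369.4 CPM over all 8 TAN libraries. Srgn, the proteoglycan core that packs granule proteins, rose by 1.82 and 1.77. For Cd63, a tetraspanin of granule and lysosome membranes, the values were 0.05 and -0.45, neither of which was called. Prss57, a serine protease of azurophil granules, was lower, at -2.22 and -1.44, and so was Ms4a3, a gene of granulocyte and monocyte progenitors, at -3.98 and -3.75. Ctsc is also made by macrophages, whose markers were higher in TANs with 8 of 8 called in both comparisons, and their part in its level was not tested. Between the 2 kinds of TAN no gene of the 8 tested was called by edgeR, with 2 at an unadjusted p under 0.05 and 1 called by DESeq2, and the median was 0.08 beside -0.07 over all genes.

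In a list of protease inhibitors, 1 gene changed with Padi4 between TANs. Serpinb1a, an intracellular serpin that blocks elastase, proteinase 3 and cathepsin G, was read at 15.3, 17.0, 16.7 and 12.6 CPM in PyMT TANs and at 36.1, 37.6, 39.5 and 96.7 CPM in PyMT-Cxcr2-/- TANs. The groups did not overlap, and the log2 fold change was 1.73 (SE 0.31, adjusted p = 0.019, edgeR). It was the only gene called of the 6 tested in that list of 9, whose median was 0.21 beside -0.07 over all genes. Against marrow, Serpinb1a fell by 4.67 in PyMT TANs and, without Cxcr2, was at -2.86. Slpi, a secreted inhibitor of elastase and cathepsin G, was lower, at -1.85 and -1.26 in the same comparisons. The stefin gene Stfa2l1 fell by 0.77 in PyMT TANs, while the value of -0.28 in PyMT-Cxcr2-/- TANs did not pass. Serpinb6a, a cathepsin G inhibitor, gave -0.01 and 0.06. In all, 1 gene was higher and 3 lower of the 5 tested in PyMT TANs (median -0.77), and 1 higher and 2 lower of the 5 tested in PyMT-Cxcr2-/- TANs (median -0.28).

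The deiminase family did not move as a group. Padi2, the broadly expressed deiminase, was read at 0.447 to 1.11 CPM in marrow, and over the TAN libraries at 5.93 to 13.9 CPM with Cxcr2 intact and 7.88 to 19.2 CPM without it. It rose against marrow by 3.64 and 4.06 on the log2 scale (adjusted p = 1.3e-05 and 3.6e-07, edgeR), the opposite direction to Padi4. Macrophage markers were also higher in TANs, as given above, and in PyMT-Cxcr2-/- replicates 1 to 4, where Padi2 was read at 16.7, 19.2, 10.4 and 7.88 CPM, they summed to 4192, 4836, 2745 and 2314 CPM. In PyMT replicates 1 to 4 these markers summed to 2135, 4709, 5029 and 3426 CPM, and the orders differed. There Padi2 was lowest in replicate 1, at 5.93 CPM, and highest in replicate 4, at 13.9 CPM. Mammary epithelial markers summed to 40.7, 55.4, 239.1 and 417.3 CPM in PyMT replicates 1 to 4. In PyMT-Cxcr2-/- replicates 1 to 4 they summed to 204.1, 288.6, 66.8 and 106.3 CPM. The part of macrophage and epithelial markers in the Padi2 result was not tested. Padi3, best known from hair follicles, was read at 4.80 to 7.97 CPM in marrow and at no more than 1.37 CPM in any TAN library, and was lower, at -4.06 and -2.98. Per exon length, Padi4 stayed above Mpo, Elane, Prtn3 and Ctsg on average in each of the 3 groups. Of the 8 genes of the deiminase and peroxidase family and its neighbours, 4 were tested in PyMT TANs and 3 in PyMT-Cxcr2-/- TANs against marrow, with 1 higher (Padi2) and 1 lower (Padi3) in each. Between TANs none of the 3 tested was called by edgeR or DESeq2 and none had an unadjusted p under 0.05, and Padi2 differed by 0.34 (SE 0.33, adjusted p = 0.73).

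**Figure D4:**
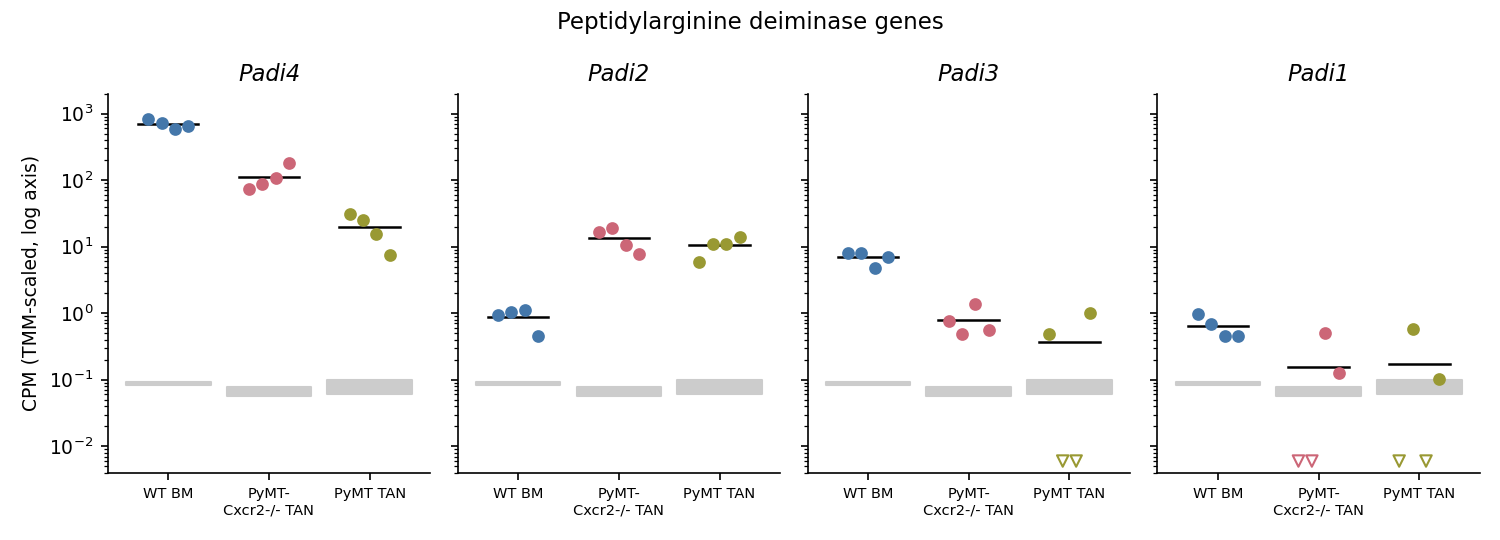
CPM of the deiminase genes on a log axis by group, with 1 point for each library, a line at the mean, and open triangles near the bottom for libraries with 0 counts, not to scale. Padi4 and Padi3 are lower in TANs than in marrow, whereas Padi2 is higher, at 5.93 to 19.2 CPM in TANs against 0.447 to 1.11 CPM in marrow.

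Partners of Padi4 in trap release and lytic death were mostly lower in TANs. Of 12 genes tested, 8 were lower and 1 was higher in PyMT TANs against marrow, and 7 were lower and 1 was higher in PyMT-Cxcr2-/- TANs, with medians of -1.33 and -0.84. Over all genes tested, 23.2% and 25.1% were called lower in these comparisons and 30.1% and 34.4% higher, with a median of 0.09 in each. Cybb, Ncf1 and Rac2 encode subunits of the NADPH oxidase that makes the superoxide from which the substrate of myeloperoxidase arises. Their log2 fold changes were -2.82, -1.98 and -1.83 in PyMT TANs and -1.94, -1.4 and -1.05 in Cxcr2-deficient ones, all called. Gsdmd, the pore-forming gasdermin, was lower, at -1.35 and -0.80, while Ripk3, a kinase of necroptosis, rose by 2.61 and 1.90. Between TANs none of the 12 was called by edgeR, although 10 had an unadjusted p under 0.05 and DESeq2 called 3 higher and 1 lower. DESeq2 called 693 higher and 294 lower of all 18463 genes tested, and the share of all genes under that unadjusted p was not counted.

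The transcription factors of early granulopoiesis went in both directions against marrow. In PyMT TANs 4 of 10 were higher and 5 lower, and in PyMT-Cxcr2-/- TANs 4 were higher and 6 lower. Over all genes tested, 30.1% and 34.4% were called higher in these comparisons, and 23.2% and 25.1% lower. Myb, a factor of proliferating progenitors, was read at 24.4 to 26.2 CPM in marrow and at no more than 2.31 CPM in any TAN library, and was lower, at -5.03 and -3.98. Cebpe, needed for the step from primary to secondary granules, was lower, at -5.81 and -4.09. Among the most abundant of the list, Cebpb rose by 1.67 and 2.49 and Runx1 by 1.03 and 0.65, while Spi1, which encodes PU.1, was lower, at -1.12 and -0.64 and Cebpd was at -1.72 and -1.36. Cell cycle genes numbered 2 higher and 3 lower of 10 in PyMT TANs and 7 lower of 10 in PyMT-Cxcr2-/- TANs against marrow. Of these 10, only Pcna was called between TANs, and it was lower without Cxcr2 (log2 fold change -0.73, SE 0.13, adjusted p = 0.019, edgeR). Over all genes tested, 0.596% were called lower in that comparison. DESeq2 also called 1 of the 10 lower. Between TANs no transcription factor was called by edgeR, with 4 at an unadjusted p under 0.05 and 2 called higher by DESeq2.

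Genes of the later, secondary and tertiary granules differed between TANs in the direction of Padi4. Of 8 tested, 6 were higher in PyMT-Cxcr2-/- TANs and none lower, with a median log2 fold change of 2.0 beside -0.07 over all genes. Ngp, Ltf and Lcn2 rose by 2.6, 2.46 and 1.58, and Mmp9, at 1.17 with an adjusted p of 0.062, did not pass. Against marrow all 8 were lower in both TAN groups, with medians of -5.41 and -3.20. Of 7 neutrophil markers, 4 were called higher and 1 lower, the latter being Cxcr2 itself, the gene deleted in this group, at a mean of 9.48 against 1186 CPM. Without PyMT replicates 2 and 3, only 4 genes of the whole table were still called higher between TANs, so at least 6 of these 10 higher calls were lost with fewer libraries. Macrophage markers had a median of -0.26 between TANs, with none of 8 called by edgeR or DESeq2 and none at an unadjusted p under 0.05, and their summed levels overlapped.

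The genes closest to the members over all 12 libraries were different for the granule genes and for Padi4. Likeness was measured as the root mean square difference of centred log2 CPM among 11085 genes with a mean log2 CPM of at least 1. Closest to the mean profile of Mpo, Elane, Prtn3 and Ctsg were Hist1h1e (0.46), Olfm4 (0.64), Serpinb10 (0.68), Erg (0.71) and Tex15 (0.74). Ctsg and Mpo, which enter that mean, were at 0.68 and 0.77 from it, Prtn3 and Elane at 1.21 and 1.40, and Padi4, which does not enter it, at 1.29. Hist1h1e, a linker histone gene, had means of 685.4 CPM in marrow, 31.0 in PyMT TANs and 33.8 in PyMT-Cxcr2-/- TANs, and its ranges in the 2 kinds of TAN overlapped. Olfm4, which encodes a protein stored by a subset of neutrophils, had means of 2164, 84.7 and 150.3 CPM.

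Closest to Padi4 were Adpgk (0.37), I830127L07Rik (0.39), Ly6c2 (0.41), Cd177 (0.46) and Nhsl2 (0.48). Cd177, a surface protein that presents proteinase 3 on human neutrophils, was read at 246.4, 167.3, 213.2 and 76.2 CPM in PyMT TANs and at 481.0, 582.1, 620.4 and 1216 CPM in PyMT-Cxcr2-/- TANs. Ly6c2, part of the Ly6C antigen, was read at 31.3, 27.9, 29.2 and 14.9 CPM and at 76.0, 73.6, 82.7 and 147.8 CPM. For both genes, as for Padi4, PyMT-Cxcr2-/- replicate 4 was the highest TAN library and PyMT replicate 4 the lowest. Both were picked for their likeness to Padi4 over these same libraries, so this shared order follows from the choice and is only a description. PyMT-Cxcr2-/- replicate 4 was also highest among TANs for Cebpe, at 19.0 CPM beside 3.46 to 4.86 CPM in the other 3 of its group, for Ltf at 2855 CPM and for Serpinb1a at 96.7 CPM. The log2 fold change of Cebpe between TANs was 1.64 (SE 0.52, adjusted p = 0.14, edgeR), which did not pass. Mpo, Elane, Prtn3 and Ctsg were not raised in that library, where they were read at 0.458, 0.167, 1.5 and 0 CPM.

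**Figure D5:**
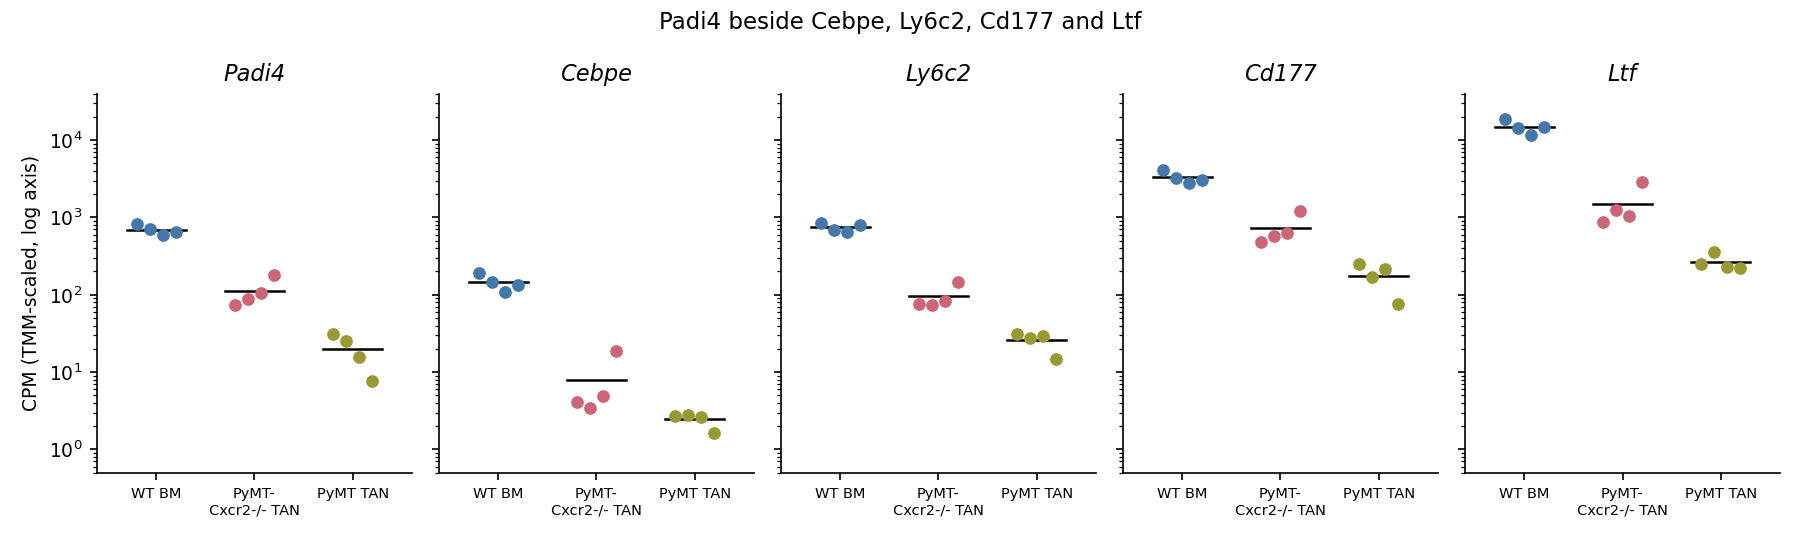
CPM on a log axis of Padi4, Cebpe, Ly6c2, Cd177 and Ltf by group, with 1 point for each library in replicate order and a line at the mean. In each panel PyMT-Cxcr2-/- TANs lie between PyMT TANs and marrow, and PyMT-Cxcr2-/- replicate 4 is the highest TAN library, at 182.2 CPM for Padi4. Ly6c2 and Cd177 were picked for their likeness to Padi4, so their pattern follows from that choice.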

How the data were processed

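Ribosomal RNA was depleted and directional libraries were sequenced as 150-base pairs. The authors used STAR for alignment of trimmed reads to mm10 and HTSeq for counting, and the deposited values are raw counts for each gene. The strand setting, annotation release and versions are not given in the sources used here. Identifiers were matched to GENCODE M21. Each comparison was fitted on its 2 groups over the whole table with edgeR 4.0.16 in R 4.3.3 (TMM factors, filterByExpr, robust quasi-likelihood test, Benjamini-Hochberg adjustment), with calls at an adjusted p under 0.05 and a change of at least 1.5-fold. The study used DESeq2 with the same thresholds, and the fits on 2 groups at a time were chosen here. SE is the log2 fold change divided by the root of the F statistic. CPM used TMM factors over 12 libraries. Library depth was 25032704 to 51351569 counts. The fit was tested on simulated counts. The labels number the replicates of each group, without stating mice, litters or batches. Each library was taken as 1 mouse, since the paper gives 4 animals per group for its comparison of TANs.

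Alternatives were size factors by relative log expression, no filter, a joint fit, DESeq2 1.42.0, GC and length adjustment, a replicate block and leaving out each library. Halved counts and leaving out PyMT replicates 2 and 3 were added after seeing the data. The members and gene lists were chosen with earlier results of these data known. Named genes are the members, list genes (up to 4 of highest mean CPM each) and the 5 nearest profiles. Prss57, Ms4a3, Padi3, Gsdmd, Ripk3, Myb, Cebpe, Hba-a1, Hbb-bs, Cxcr2 and Plppr3 were named after their values were seen. Promoters are from RefSeq (GRCm38.p6), which matched all 5 genes. The values of 1 gene of the extracellular trap list are not reported here.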

Additional observations from a re-analysis of the deposited data

Results flagged for a closer look

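Within groups of 4 libraries, 5 levels stood apart from the rest of their group, with a gap to the nearest library that exceeded Dixon's critical share of the group's range. Mpo was 5.39 CPM in PyMT replicate 3 against 1.08 CPM in the next library, and without that library the difference between TANs was -0.19 in place of -1.41 (log2). Mpo was 1.52 CPM in PyMT-Cxcr2-/- replicate 2 against 0.582 CPM in the next. Elane was 1.0 CPM in PyMT replicate 2 against 0.170 CPM in the next, a gap of 0.830 of the range, just past the critical value. Ctsg was 0.0850 CPM in PyMT replicate 1 and 0.0516 CPM in PyMT-Cxcr2-/- replicate 2, which are 4 and 2 reads beside 0 in the rest of each group. For normally distributed values, chance alone sets apart about 1 in 20 groups by this measure. That rate does not hold for sparse counts. With 0 in the rest of the group, any read in 1 library gives Ctsg a gap of the whole range. The low counts behind all but the first value limit what the measure can show.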

How the results depend on the processing

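Mpo, Prtn3 and Padi4 were called lower than in marrow in both comparisons under every alternative run. The ranges in PyMT TANs were -5.13 to -3.65 for Mpo, -2.99 to -2.06 for Prtn3 and -5.70 to -4.79 for Padi4, and in PyMT-Cxcr2-/- TANs -6.03 to -5.07, -3.35 to -2.51 and -3.29 to -2.31. Elane and Ctsg entered these tests only through marrow, so their calls are no sign of stability. GC and length adjustment moved the median of all genes from 0.09 to -0.15 and from 0.09 to -0.40, the share of higher calls from 56.4% to 45.8% and from 57.9% to 39.6%, and with the replicate block to 42.7% and 39.2%. Genes called lower in PyMT-Cxcr2-/- TANs against marrow then numbered 7305, and 7283 with the block, in place of 4444.

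Between TANs, calls higher and lower (255 and 110) became 579 and 307 in a joint fit, 693 and 294 with DESeq2, 39 and 37 with GC and length adjustment and 4 and 2 without PyMT replicates 2 and 3. Calls higher were 471 with no filter. Leaving out 1 library gave 10 to 427 higher and 13 to 100 lower, the lowest of each without PyMT replicate 2. The share of higher calls was 69.9%, and 51.3% with GC and length adjustment. The members called went from 1 to 0 with no filter, GC and length adjustment, the replicate block with or without it, and PyMT replicates 2 and 3 left out, and were 0 to 1 when 1 library was left out. Padi4 stayed between 2.17 and 2.80 when 1 library was left out (adjusted p 0.015 to 0.070). It was 2.52 (0.10) with no filter, 2.40 (0.057) with GC and length adjustment and 2.55 (0.17) without PyMT replicates 2 and 3. It held with DESeq2 at 2.53 (6.0e-09). The same range for Mpo was -1.97 to -0.19 and for Prtn3 -0.77 to 0.08, the last (0.085) without PyMT replicate 3, where it turned in direction. The cause of these shifts was not tested.

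The labels number replicates 1 to 4 in each group without stating that the numbers pair them. Same-numbered libraries deviated with a mean r of -0.042 (-0.206 to 0.083 over 12 pairs), against 0.014 for the other 36. These values show no sign of pairing but cannot exclude a batch shared by replicate number. With the replicate block, calls between TANs were 4 higher and 9 lower, a 30.8% share higher, and Padi4 was 2.52 (adjusted p 0.16). With the block and GC and length adjustment they were 12 and 19, a 38.7% share, and Padi4 was 2.42 (0.48).

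Leaving out 1 library also turned differences in transcript share. For Mpo in PyMT TANs against marrow the range was -7.47 to 2.82 percentage points, with 2.74 without PyMT replicate 2. Between TANs, Elane ranged from -7.47 to 20.0, Prtn3 from -7.17 to 14.1 and Ctsg from -1.09 to 1.13, and without division by length the Ctsg difference was -0.098. Levels of Elane and Ctsg in TANs rest on 0 to 38 reads, which limits any statement on them.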
